A study of Homo sapiens with 16 samples.

Results

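The transcripts described here come from 50 genes of DNA replication, chosen by symbol from the 58735 genes of the count tables: the factors that license origins, activate the helicase, copy DNA at the fork, supply nucleotides and repack chromatin behind it. The 50 were chosen with earlier results of these data known. All 50 were found and all 50 passed the filter on low counts in every comparison. They were measured in MDA-MB-231 and SUM159PT, 2 established human lines labelled triple-negative breast cancer and wild type. Cells received Lipofectamine2000 with an siRNA against YES1, a Src-family tyrosine kinase (siYES1), or against firefly luciferase, a gene that human cells lack (siNS), and the labels give a time of 48 h. Medium was added at 6 h and changed at 24 h, and all 4 groups went through this transfection, so no untransfected cells enter any comparison. Each line had 4 libraries per siRNA, which the design text calls technical replicates, so p-values here measure only the spread between such samples. Each line was grown in its own medium, so line and medium cannot be told apart.

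Replication begins in G1, when the origin recognition complex with CDC6 and CDT1 loads the MCM2-7 ring onto DNA, a step that geminin (GMNN) blocks later in the cycle. At the start of S phase, CDC7-DBF4 and cyclin E with CDK2 drive MCM10, CDC45 and the GINS complex to turn the loaded ring into a moving helicase, and DNA polymerases, the PCNA clamp and its loader RFC follow. Most of these genes are textbook targets of the E2F transcription factors, which are released from RB as cells pass from G1 into S phase.

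E2F-type words were common in the promoters of the members. Of the 50 genes, 44 had a promoter in the RefSeq table (GRCh38.p14), taken as 250 bases before to 50 bases after the start. Of these 44, 20 (45.5%) held TTTCCCGC, TTTGGCGC, TTTCGCGC or TTTGCCGC on either strand, against 3.33% of all 27305 promoters of the same length and 5.38% of the 10327 whose genes were tested in MDA-MB-231. The word CCAAT, read on both strands, was in 54.5% of the members' promoters, 35.7% of all and 36.4% of those of tested genes. The cell cycle homology words TTTGAA and TTCGAA were in 9.09%, 16.6% and 11.0%. Base composition differs between promoters, and its part in these shares was not tested. The sequences below are those of the 3 members with such a word that had the largest change in MDA-MB-231, and of MCM3, which was added after its values were seen because it fell most in SUM159PT. They run 5′ to 3′ on the strand of the gene, with the E2F-type word in capitals.
DTL (chr1:212035498-212035797, plus strand): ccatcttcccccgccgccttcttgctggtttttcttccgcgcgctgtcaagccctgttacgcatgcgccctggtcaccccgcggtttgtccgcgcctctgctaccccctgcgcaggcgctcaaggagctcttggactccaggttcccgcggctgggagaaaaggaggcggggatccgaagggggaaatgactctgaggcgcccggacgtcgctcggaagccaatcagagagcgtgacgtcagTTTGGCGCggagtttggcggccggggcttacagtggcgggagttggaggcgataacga
GINS1 (chr20:25407423-25407722, plus strand): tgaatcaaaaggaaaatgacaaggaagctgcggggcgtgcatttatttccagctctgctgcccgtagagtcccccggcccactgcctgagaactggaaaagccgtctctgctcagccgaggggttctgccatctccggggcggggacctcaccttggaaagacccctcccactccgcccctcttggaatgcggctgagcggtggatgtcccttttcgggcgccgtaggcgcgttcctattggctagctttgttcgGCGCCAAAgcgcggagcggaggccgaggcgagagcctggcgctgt
GINS2 (chr16:85688905-85689204, minus strand): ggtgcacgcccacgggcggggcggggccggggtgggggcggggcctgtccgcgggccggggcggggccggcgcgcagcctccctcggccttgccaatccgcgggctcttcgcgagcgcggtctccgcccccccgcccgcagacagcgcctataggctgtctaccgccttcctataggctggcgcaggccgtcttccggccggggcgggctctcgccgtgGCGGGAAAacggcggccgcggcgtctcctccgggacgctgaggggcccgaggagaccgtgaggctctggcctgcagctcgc
MCM3 (chr6:52284693-52284992, minus strand): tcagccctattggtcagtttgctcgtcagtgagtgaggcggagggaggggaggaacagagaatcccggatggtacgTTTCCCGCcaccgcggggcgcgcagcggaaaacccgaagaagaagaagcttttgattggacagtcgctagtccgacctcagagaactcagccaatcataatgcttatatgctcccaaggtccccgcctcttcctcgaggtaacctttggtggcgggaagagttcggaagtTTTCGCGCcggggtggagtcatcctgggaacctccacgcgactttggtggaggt
Counting the first base of the RefSeq transcript as 1, the word began at position -8 in DTL, at 6 in GINS1 and at -31 in GINS2, and MCM3 held a pair of words, at -174 and -4. These starts differ from the GENCODE gene starts printed with the genes below. The RefSeq start lies 195 bases inside the GENCODE gene in DTL, 1119 in GINS2 and 139 in MCM3, and 54 bases upstream of it in GINS1. In MDA-MB-231 the median log2 fold change was 0.75 for the 20 members with the word and 0.82 for the 24 without it. In SUM159PT these medians were -0.33 and -0.03, and without siNS replicate 1 of that line they were 0.03 and 0.16.

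The libraries held 15680459 to 23451253 counts. YES1 itself stood at 60.5 ± 6.33 CPM (SD, n = 4; CPM are counts scaled to a common total, with TMM factors over all 16 libraries) with siNS and 12.7 ± 0.756 with siYES1 in MDA-MB-231, and at 140.4 ± 25.2 and 18.6 ± 1.87 in SUM159PT. The mesenchymal marker VIM was at 468 to 2459 CPM in the group means, while ESR1 and PGR, the estrogen and progesterone receptors, and the epithelial cadherin CDH1 were under 1. EPCAM was at 22.5 and 11.8 CPM in the groups of MDA-MB-231 and at 0.66 and 0.43 in those of SUM159PT. ERBB2, the gene of HER2, was at 69.1 to 113.9 CPM in the 4 groups. Both B cell markers were at 0 in every library. The 4 fibroblast markers summed to 170.3 to 197.5 CPM with siNS and 75.3 to 82.0 with siYES1 in SUM159PT, and to 20.4 to 23.9 and 7.19 to 8.30 in MDA-MB-231. In SUM159PT the means of PDGFRA were 103.2 and 32.7 CPM and those of PDGFRB 64.9 and 23.4, while DCN was higher with siYES1 (16.3 and 22.6) and LUM was at 0. In MDA-MB-231 PDGFRB was at 19.0 and 4.76 and LUM at 2.87 and 2.98. The 3 macrophage markers summed to 16.9 to 20.9 CPM with siNS and 6.04 to 9.0 with siYES1 in MDA-MB-231, and to 4.43 to 6.18 and 0.98 to 2.21 in SUM159PT. Mitochondrial transcripts took 2.14% to 2.50% of counts with siNS and 1.79% to 2.10% with siYES1 in SUM159PT, and 1.26% to 1.94% over both groups of MDA-MB-231. The part of these differences in the results was not tested. In the deposited counts, the SUM159PT columns begin with S149. This is not short for SUM159PT and might name a different line, and the titles and labels were followed.

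One control library stood apart in these genes. In siNS replicate 1 of SUM159PT, 47 of the 50 members were at their highest of the 4 siNS libraries, against 35.6% of all 14469 genes tested in that line. The ratio of this library to the mean of the other 3 had a median of 1.87 over the members and 0.986 over all genes. 21 members stood 2-fold or more above that mean, against 4.04% of all genes. In 39 members this library was higher than all 7 other SUM159PT libraries, which was not counted over all genes. The ratio ran from 0.789 for DBF4 to 4.21 for GINS4, and only DBF4, CCNE1 and CDT1 were not highest in this library. The counts and the main SUM159PT values below are therefore given with and without it.

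**Figure D1:**
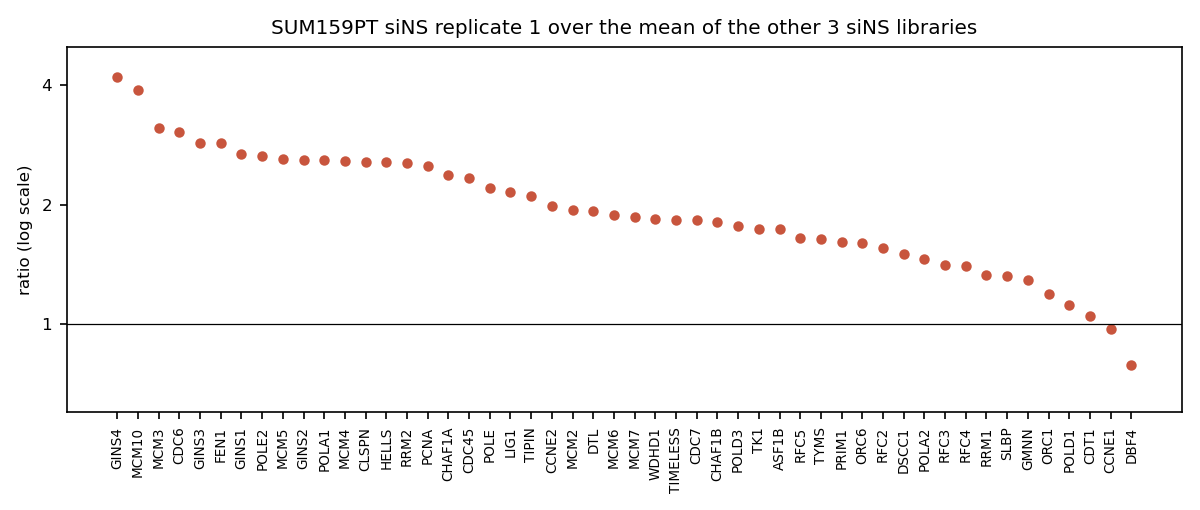
Ratio of siNS replicate 1 of SUM159PT to the mean of the other 3 siNS libraries of that line, on a log scale, with 1 point for each of the 50 members ordered by ratio. The ratios run from 4.21 for GINS4 to 0.789 for DBF4, and 21 members are at 2 or more.

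The first comparison asked how these transcripts changed when YES1 was silenced in MDA-MB-231. Nearly all of these genes rose. Of the 50 members, 48 rose, 0 fell and 2 were not called, where 24.9% of all tested genes rose and 27.5% fell (edgeR quasi-likelihood test, Benjamini-Hochberg adjusted p under 0.05 over 14319 genes). At an unadjusted p under 0.05, and with DESeq2 or limma-voom, 0 members fell as well. Of all genes, 3832 fell in DESeq2 and 3876 in limma-voom, and 8273 passed the unadjusted threshold in either direction. The median log2 fold change of the members was 0.76, beside 0.00 for all genes. In the same 48 genes all 4 siYES1 libraries stood above all 4 siNS libraries, as for 19.0% of all genes (the reverse held for 0 members and for 28.0% of all genes). In RNA from bulk cultures, more cells in S phase and more transcript per cell cannot be told apart. In a fit of both lines together, which shares their spread, 38 of the 48 kept their call. The 10 that lost it were CDC6, MCM3, MCM4, MCM5, GINS3, GINS4, POLA1, PCNA, LIG1 and TIPIN, with adjusted p from 0.0661 to 0.445.

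**Figure D2:**
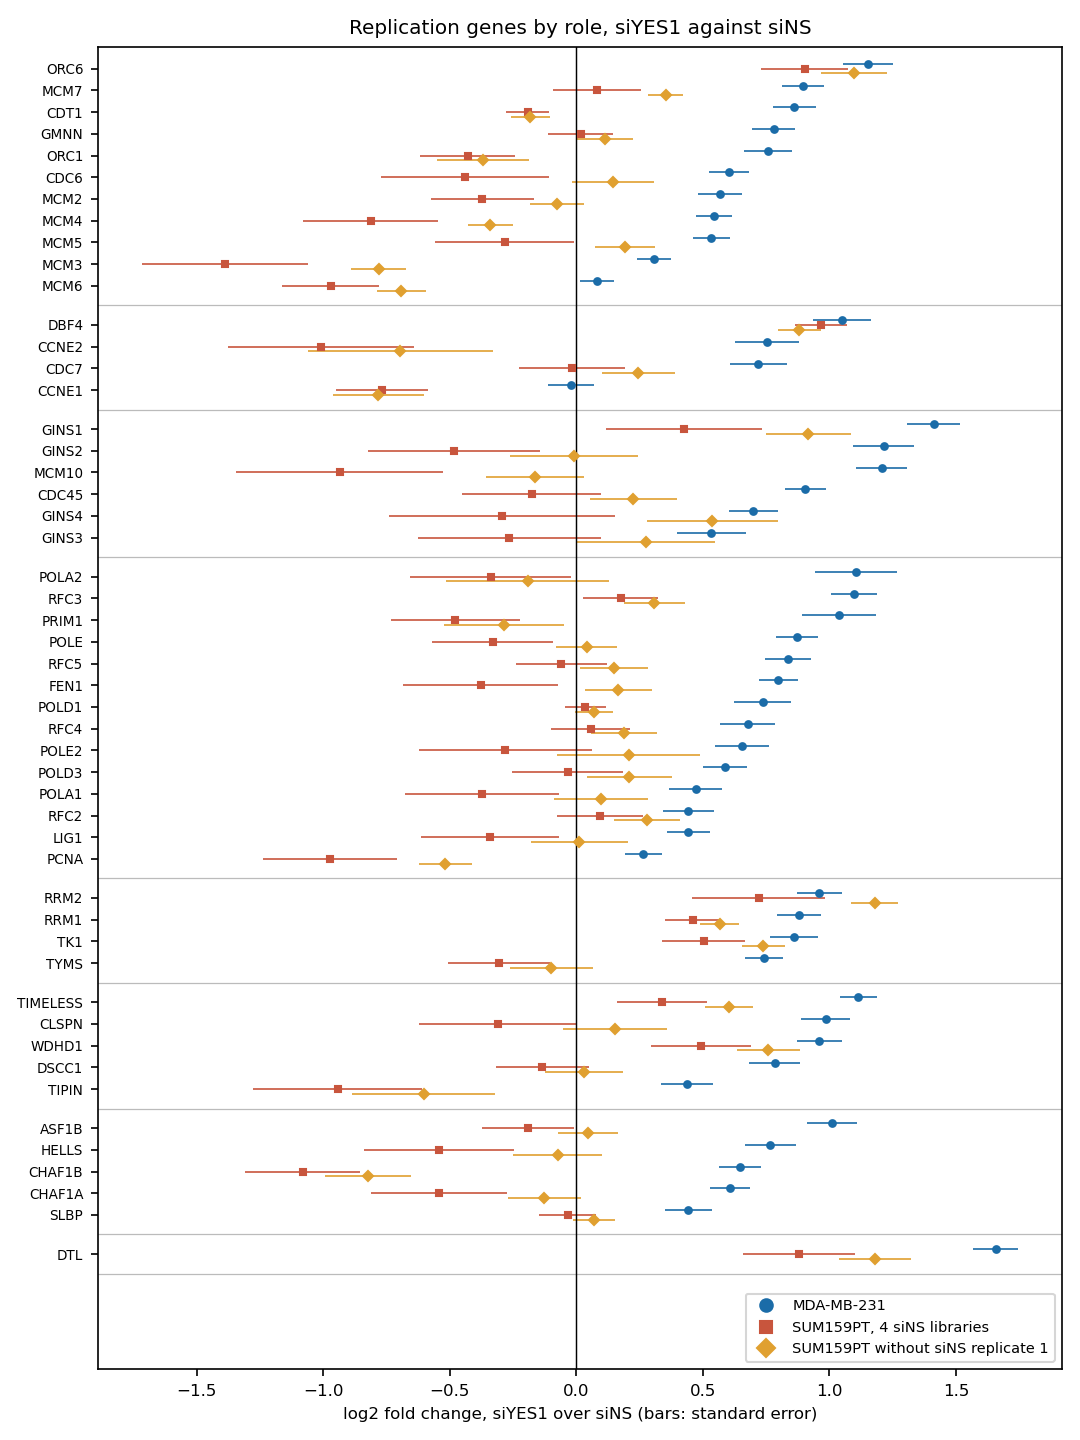
Log2 fold change of siYES1 over siNS for the 50 members grouped by role, with bars for the standard error, in MDA-MB-231 (circles), SUM159PT (squares) and SUM159PT without siNS replicate 1 (diamonds). The circles lie right of 0 except for CCNE1 at -0.02, while the SUM159PT values lie on both sides, from -1.39 for MCM3 to 0.97 for DBF4.

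DTL had the largest change. It is the substrate receptor of the CRL4 ubiquitin ligase, which marks CDT1 for destruction during S phase (ENSG00000143476, chromosome 1, 212035553 to 212107400, plus strand, GRCh38, as all positions here). In replicates 1 to 4 its transcript stood at 33.5, 30.9, 29.7 and 25.1 CPM with siNS and at 85.2, 91.6, 92.1 and 93.5 with siYES1. Every siYES1 library was more than 2-fold above every siNS library, and the log2 fold change was 1.66 ± 0.09 (SE, adjusted p by edgeR = 4.47e-10).

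Of the 11 genes of origin licensing, 10 rose, with a median log2 fold change of 0.60. ORC6, a subunit of the origin recognition complex (ENSG00000091651, chromosome 16, 46689643 to 46698394, plus strand), was at 16.3, 20.6, 18.8 and 15.7 CPM with siNS and 37.8, 36.8, 37.4 and 40.8 with siYES1, a log2 fold change of 1.15 ± 0.10 (SE, adjusted p by edgeR = 6.63e-08). Its partner ORC1 rose by 0.76 ± 0.10. CDC6, the loading ATPase (ENSG00000094804, chromosome 17, 40287633 to 40304657, plus strand), was at 76.9, 77.9, 74.1 and 64.0 CPM with siNS and 101.8, 107, 108 and 112 with siYES1, and rose by 0.60 ± 0.08. The groups of ORC6 and CDC6 did not overlap. CDT1, which brings MCM2-7 to the origin (ENSG00000167513, chromosome 16, 88803213 to 88809258, plus strand), stood at 40.5, 47.8, 45.5 and 39.3 CPM with siNS and 70.3, 79.6, 77.7 and 74.9 with siYES1. Its inhibitor geminin, GMNN (ENSG00000112312, chromosome 6, 24774931 to 24786099, plus strand), stood at 48.8, 54.5, 45.99 and 44.4 and 73.8, 77.2, 81.8 and 87.3. Both rose by similar amounts, CDT1 by 0.86 ± 0.08 and GMNN by 0.78 ± 0.09, and the ratio of CDT1 to GMNN in reads per kb was 0.665 ± 0.0497 with siNS and 0.704 ± 0.0524 with siYES1 (SD, n = 4 each; exact permutation test, two-sided p = 0.343).

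The 6 subunits of the MCM2-7 ring had log2 fold changes from 0.08 to 0.90. MCM7 rose by 0.90 ± 0.08, MCM2 by 0.57 ± 0.09, MCM4 by 0.54 ± 0.07, MCM5 by 0.53 ± 0.07 and MCM3 by 0.31 ± 0.07, while MCM6, at 0.08 ± 0.07, did not pass the test (adjusted p by edgeR = 0.315). MCM2 (ENSG00000073111, chromosome 3, 127598223 to 127622436, plus strand) was at 59.9, 57.8, 74.2 and 67.5 CPM with siNS and 95.01, 97.4, 86.6 and 91.1 with siYES1. MCM3 (ENSG00000112118, chromosome 6, 52264009 to 52284881, minus strand), the most abundant of the 6 per kb in this line, was at 279, 303, 319.5 and 292 and 357, 346, 349.9 and 367. MCM6 was at 95.6, 94.6, 98.0 and 95.4 with siNS and 94.3, 99.5, 97.7 and 99.3 with siYES1, groups that overlapped. 8.94% of the exon bases of MCM7 and 22.7% of those of MCM2 are shared with genes on the opposite strand, and the strand setting of the counting is not given in the sources used here.

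Of the 4 genes of the S-phase kinases, 3 rose. DBF4, the activating subunit of the CDC7 kinase (ENSG00000006634, chromosome 7, 87876216 to 87909541, plus strand), was at 26.7, 27.4, 20.7 and 18.9 CPM with siNS and 42.1, 44.6, 51.5 and 48.9 with siYES1, a log2 fold change of 1.05 ± 0.11 (SE, adjusted p by edgeR = 1.1e-06), and CDC7 rose by 0.72 ± 0.11. The 2 cyclins E, the activators of CDK2, differed. CCNE2 was at 11.7, 8.74, 10.6 and 7.97 CPM with siNS and 16.96, 16.9, 15.6 and 14.0 with siYES1 and rose by 0.75 ± 0.13, with 37.0% of its exon bases shared with INTS8 on the opposite strand. CCNE1 (ENSG00000105173, chromosome 19, 29811898 to 29824308, plus strand) was at 18.7, 18.9, 19.5 and 19.9 with siNS and 18.8, 18.7, 16.5 and 19.1 with siYES1. Its groups overlapped, at a log2 fold change of -0.02 ± 0.09 (adjusted p by edgeR = 0.863).

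All 6 genes of helicase activation rose, with a median of 1.06. GINS1, a subunit of the GINS complex whose promoter is shown above (ENSG00000101003, chromosome 20, 25407727 to 25452628, plus strand), was at 21.7, 19.0, 27.6 and 22.4 CPM with siNS and 52.7, 61.2, 61.4 and 56.6 with siYES1, a log2 fold change of 1.41 ± 0.10 (SE, adjusted p by edgeR = 1.3e-08). GINS2 rose by 1.21 ± 0.12, GINS4 by 0.70 ± 0.10 and GINS3 by 0.53 ± 0.13. MCM10, which acts when the helicase is switched on (ENSG00000065328, chromosome 10, 13161554 to 13211104, plus strand), was at 30.6, 27.5, 30.3 and 21.1 CPM with siNS and 58.9, 61.3, 61.2 and 61.8 with siYES1 and rose by 1.21 ± 0.10. CDC45 rose by 0.90 ± 0.08. All 6 had groups that did not overlap.

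All 14 genes of polymerases, clamp, clamp loader and Okazaki fragment joining rose, with a median of 0.71. POLA2, the B subunit of DNA polymerase alpha (ENSG00000014138, chromosome 11, 65261762 to 65305589, plus strand), was at 2.96, 4.22, 3.97 and 2.97 CPM with siNS and 6.96, 6.42, 7.24 and 8.56 with siYES1, a log2 fold change of 1.104 ± 0.16, with 35.1% of its exon bases shared with AP000944.2 on the same strand. PRIM1, the catalytic subunit of primase (ENSG00000198056, chromosome 12, 56731596 to 56752373, minus strand), was at 5.96, 6.13, 5.88 and 3.96 and 10.2, 9.49, 12.2 and 11.5 and rose by 1.04 ± 0.15. Both are low transcripts whose groups did not overlap, and 14.9% of the exon bases of PRIM1 are shared with AC117378.1. RFC3, RFC5, RFC4 and RFC2, subunits of the clamp loader, rose by 1.097, 0.84, 0.68 and 0.44. The leading-strand polymerase POLE rose by 0.87, POLD1 of the lagging-strand polymerase by 0.74, the flap nuclease FEN1 by 0.80 and the ligase LIG1 by 0.44. PCNA, the sliding clamp (ENSG00000132646, chromosome 20, 5114953 to 5126626, minus strand), had the smallest change of the group. It stood at 133, 145, 134 and 120.2 CPM with siNS and 148, 157, 152 and 158.7 with siYES1, a log2 fold change of 0.26 ± 0.07 (SE, adjusted p by edgeR = 0.00606).

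The 4 genes of nucleotide supply all rose by 0.74 to 0.96. RRM2, the small subunit of ribonucleotide reductase (ENSG00000171848, chromosome 2, 10120698 to 10131419, plus strand), was at 72.7, 73.3, 74.3 and 60.9 CPM with siNS and 119, 120.3, 145 and 142 with siYES1, a log2 fold change of 0.96 ± 0.09, with 20.2% of its exon bases shared with AC007240.1. The large subunit RRM1 rose by 0.88 ± 0.09 and thymidine kinase TK1 by 0.86 ± 0.09. Thymidylate synthase, TYMS (ENSG00000176890, chromosome 18, 657604 to 673578, plus strand), was at 40.0, 39.9, 43.5 and 37.8 and 64.7, 64.1, 62.5 and 68.2 CPM and rose by 0.74 ± 0.08. TYMS lies on the same chromosome arm as YES1 and shares 39.1% of its exon bases with ENOSF1 on the opposite strand.

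All 5 genes of fork protection and cohesion loading and all 5 of chromatin assembly rose, with medians of 0.96 and 0.65. TIMELESS (ENSG00000111602, chromosome 12, 56416373 to 56449403, minus strand) was at 43.0, 41.3, 45.5 and 40.2 CPM with siNS and 87.5, 92.3, 85.4 and 89.2 with siYES1, a log2 fold change of 1.11 ± 0.07. Its binding partner in the fork protection complex, TIPIN (ENSG00000075131, chromosome 15, 66336206 to 66386746, minus strand), was at 12.1, 13.6, 11.3 and 11.4 and 15.6, 15.6, 15.1 and 16.8 CPM and rose by 0.44 ± 0.10, with 21.0% of its exon bases shared with the pseudogene RPL9P25. Both pairs of groups were apart, but TIMELESS had the larger change. The checkpoint adaptor CLSPN rose by 0.99, WDHD1, which ties polymerase alpha to the helicase, by 0.96, and DSCC1 of the alternative clamp loader by 0.78. The histone chaperone ASF1B (ENSG00000105011, chromosome 19, 14119509 to 14136956, minus strand) was at 39.4, 43.0, 55.2 and 42.5 CPM with siNS and 86.7, 93.3, 83.5 and 85.7 with siYES1 and rose by 1.01 ± 0.10. CHAF1B, a subunit of chromatin assembly factor 1 (ENSG00000159259, chromosome 21, 36385378 to 36419015, plus strand), was at 27.9, 27.3, 31.6 and 27.2 and 41.9, 42.8, 41.5 and 45.6 CPM and rose by 0.65 ± 0.08. Its partner CHAF1A rose by 0.61, the chromatin remodeller HELLS by 0.77 and the histone mRNA binding protein SLBP by 0.44.

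In SUM159PT with all libraries, 14 of the 50 members changed with siYES1, in both directions. Whether these counts differ from those of all genes was not tested. ORC6, DBF4, RRM1, RRM2, TK1 and DTL rose, MCM3, MCM4, MCM6, CCNE1, CCNE2, PCNA, TIPIN and CHAF1B fell, and 36 were not called. The 6 that rose stand beside 17.7% of all 14469 tested genes that rose, and the 8 that fell beside 19.0% that fell (edgeR, adjusted p under 0.05). The median log2 fold change was -0.28 for the members and -0.03 for all genes. Without siNS replicate 1 of that line, 11 members rose (21.0% of all genes) and 6 fell (21.5%), and the median turned to 0.11. MCM7, GINS1, RFC3, TIMELESS and WDHD1 then joined those that rose, and CCNE2 and TIPIN left those that fell. WDHD1 was also called higher with all libraries by DESeq2 (adjusted p = 0.0354) and by limma-voom (adjusted p = 0.0301). The groups did not overlap for 4 members higher (20.5% of all genes) and 6 lower (16.9%), and without siNS replicate 1 for 13 higher (25.5%) and 6 lower (20.5%). Of the 14 calls, 9 held with each library left out in turn, those of ORC6, DBF4, RRM1, DTL, MCM3, MCM6, CCNE1, PCNA and CHAF1B. The call of RRM2 was lost when any library other than siNS replicate 1 was left out, with adjusted p up to 0.135. The scaling also counts here. With total counts in place of TMM factors the median of all genes moved from -0.03 to -0.20, with 1394 genes higher and 4173 lower in place of 2566 and 2755, and 3 members rose and 10 fell. ORC6, DBF4 and DTL kept their rise under it, RRM1, RRM2 and TK1 did not pass, and ORC1 and CDT1 joined those that fell. With that scaling and without siNS replicate 1, 10 rose and 9 fell, beside 1874 and 4414 of all 14693 genes.

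**Figure D3:**
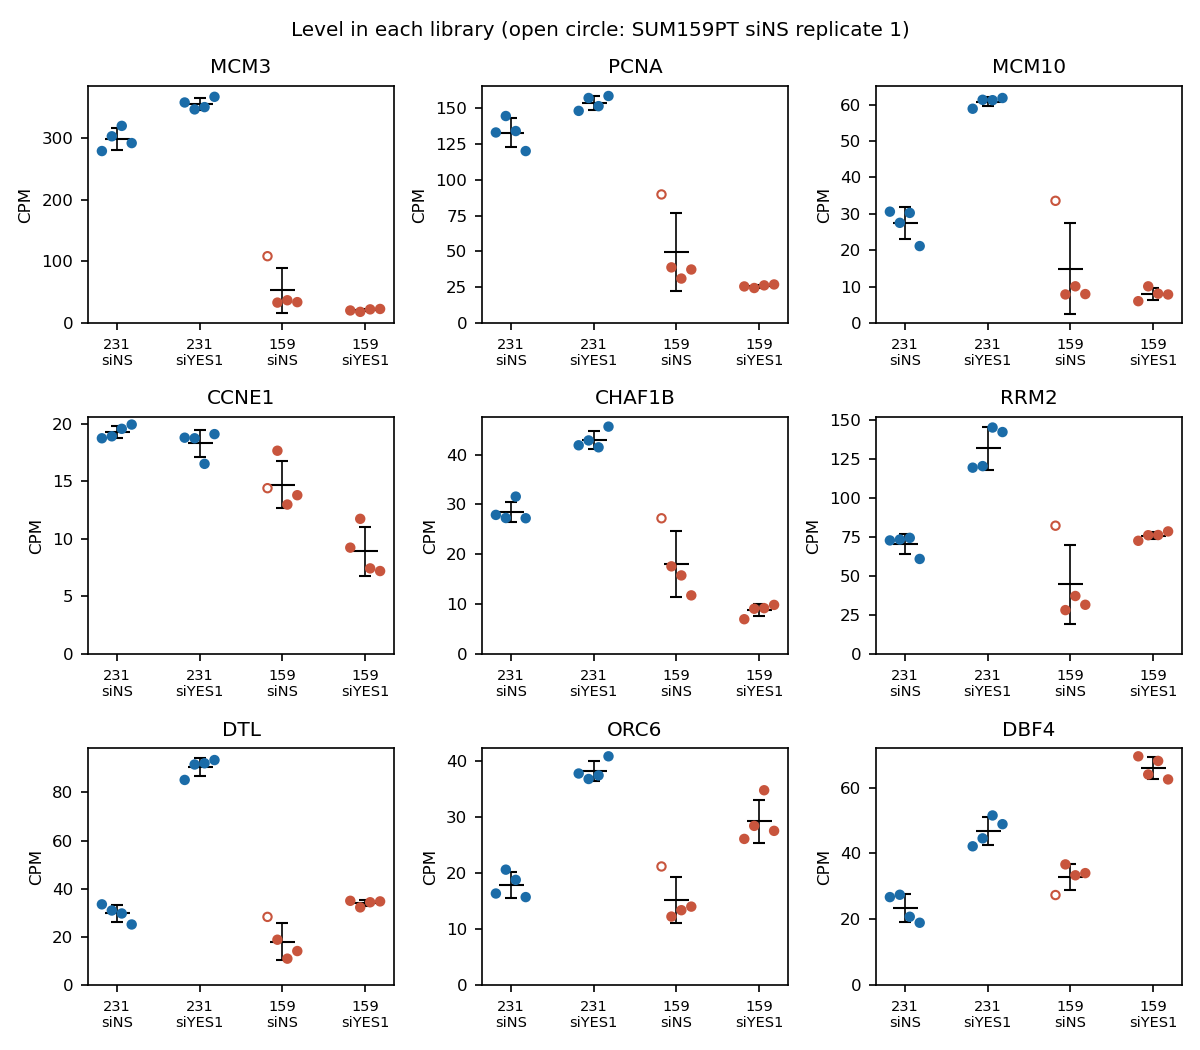
CPM of 9 members in each of the 16 libraries, with points for libraries and bars for the mean and SD (n = 4), MDA-MB-231 in blue and SUM159PT in red, and an open circle for siNS replicate 1 of SUM159PT. In SUM159PT, MCM3, PCNA, CCNE1 and CHAF1B have every siYES1 point under every siNS point, and ORC6, DTL and DBF4 have every siYES1 point above.

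MCM3 had the largest fall. In replicates 1 to 4 of SUM159PT it stood at 108, 33.1, 36.9 and 33.8 CPM with siNS and at 20.3, 18.1, 22.1 and 22.8 with siYES1. The siNS replicate 1 was about 3-fold above its 3 companions, yet all 4 siYES1 libraries lay below all of them. The log2 fold change was -1.39 ± 0.33 (SE, adjusted p by edgeR = 0.00512), and -0.78 ± 0.11 (adjusted p = 1.02e-05) without that library. MCM6 fell by 0.97 on the log2 scale, from 88.0, 50.9, 44.5 and 44.9 CPM with siNS to 30.1, 27.2, 32.2 and 30.3 with siYES1, and by 0.69 without that library. MCM4 fell by 0.81, and by 0.34 without it. The call of MCM4 was lost with any 1 siYES1 library left out, with adjusted p up to 0.0792, and was at 0.0621 in DESeq2 and 0.0583 in limma-voom. MCM7 rose without siNS replicate 1, by 0.35 ± 0.07 (adjusted p by edgeR = 0.000391), against 0.08 ± 0.17 with it and -0.10 with total counts as the scaling. MCM2 was at 84.5, 39.6, 43.1 and 48.1 CPM with siNS and 41.3, 45.2, 35.7 and 49.1 with siYES1, and did not pass the test with or without that library, at -0.37 and -0.08.

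The other licensing genes also differed among themselves. ORC6 rose from 21.2, 12.2, 13.4 and 14.0 CPM with siNS to 26.1, 28.4, 34.8 and 27.5 with siYES1, a log2 fold change of 0.90 ± 0.17 (SE, adjusted p by edgeR = 0.00122), and 1.096 ± 0.13 without siNS replicate 1. Its groups did not overlap. CDC6 was at 38.3, 11.7, 12.2 and 13.9 CPM with siNS and 16.97, 10.6, 15.3 and 14.8 with siYES1, so that siNS replicate 1 alone lay outside the range of the other 7 libraries. Its log2 fold change was -0.44 ± 0.33 with that library and 0.14 ± 0.16 without it, neither of which passed the test. CDT1 was at 78.1, 71.0, 71.5 and 80.2 and 69.7, 68.3, 61.0 and 72.1 CPM, at -0.19 ± 0.08 (adjusted p by edgeR = 0.0911) with all libraries and -0.18 ± 0.08 (0.0705) without siNS replicate 1. GMNN was at 35.9, 28.6, 25.4 and 29.2 and 36.4, 28.3, 30.5 and 28.9, at 0.02 ± 0.13 and, without that library, 0.11 ± 0.11. The ratio of CDT1 to GMNN in reads per kb was 1.89 ± 0.216 with siNS and 1.63 ± 0.216 with siYES1 (SD, n = 4 each; exact permutation test, two-sided p = 0.171), and 1.99 ± 0.131 (n = 3; exact p = 0.114) with siNS without replicate 1.

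DBF4 rose and the cyclins E fell. DBF4 was at 27.3, 36.6, 33.3 and 34.0 CPM with siNS and 69.5, 64.0, 68.1 and 62.5 with siYES1, a log2 fold change of 0.97 ± 0.10 (SE, adjusted p by edgeR = 1.42e-05), and 0.88 ± 0.08 without siNS replicate 1, the library in which it was lowest of the siNS libraries. Its kinase CDC7 was at -0.02 ± 0.21, and 0.25 ± 0.14 without that library, and did not pass. CCNE1 was at 14.4, 17.6, 13.0 and 13.8 CPM with siNS and 9.23, 11.7, 7.43 and 7.2 with siYES1. Its fall did not depend on siNS replicate 1, with -0.77 ± 0.18 in all libraries (adjusted p by edgeR = 0.00509) and -0.78 ± 0.18 without it. CCNE2, a low transcript, was at 5.94, 4.61, 1.92 and 2.41 and 1.73, 2.12, 2.04 and 1.67 CPM. Its groups overlapped, its log2 fold change was -1.01 ± 0.37 (adjusted p by edgeR = 0.0457), and the call was lost with 6 of the 8 libraries left out in turn, siNS replicate 1 among them (-0.69, adjusted p = 0.139).

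Among the genes of helicase activation, 0 rose and 0 fell in edgeR, DESeq2 and limma-voom. At an unadjusted p under 0.05 in edgeR, 0 were higher and 1 was lower, which was MCM10. Without siNS replicate 1, GINS1 alone of the 6 was called, as higher. MCM10 stood at 33.6, 7.85, 10.1 and 7.95 CPM with siNS and 6.00, 10.1, 8.06 and 7.84 with siYES1. Again siNS replicate 1 alone stood apart, and the log2 fold change was -0.94 ± 0.41 with it (adjusted p by edgeR = 0.0914) and -0.16 ± 0.19 without it. The call was made without siNS replicate 2, at -1.13 (adjusted p by edgeR = 0.0374), in the fit of both lines together, at -0.89 (0.0325), and with no filter on low counts, at -0.92 (1.73e-05). GINS1 was at 33.9, 8.04, 14.4 and 15.6 CPM with siNS and 25.5, 25.2, 23.03 and 25.7 with siYES1. It did not pass with all libraries in the main fit, at 0.43 ± 0.31, but did with no filter on low counts, at 0.44 (adjusted p by edgeR = 0.0185). It rose by 0.92 ± 0.17 without siNS replicate 1 (adjusted p by edgeR = 0.000185).

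PCNA was the 1 gene of the polymerase and clamp group that fell. It stood at 89.9, 38.9, 31.1 and 37.4 CPM with siNS and 25.6, 24.5, 26.3 and 26.9 with siYES1, groups that did not overlap. Its log2 fold change was -0.97 ± 0.27 (SE, adjusted p by edgeR = 0.0117), and -0.52 ± 0.11 (adjusted p = 0.0005) without siNS replicate 1. POLA2 was at 5.22, 2.99, 4.47 and 3.25 CPM with siNS and 2.14, 2.89, 2.61 and 5.29 with siYES1, and PRIM1 at 9.71, 6.42, 7.64 and 4.09 and 6.35, 4.60, 4.60 and 5.05. Both overlapped between the groups, at -0.34 ± 0.32 and -0.48 ± 0.25, and at -0.19 and -0.28 without siNS replicate 1. RFC3, not called with all libraries, rose by 0.31 ± 0.12 without siNS replicate 1 (adjusted p by edgeR = 0.0467).

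Members whose sign turned without siNS replicate 1, none of them called in either setting, included MCM5 (-0.28 to 0.19), GINS3 (-0.27 to 0.27), POLA1 (-0.37 to 0.10), POLD3 (-0.03 to 0.21), POLE2 (-0.28 to 0.21) and FEN1 (-0.38 to 0.17). The remodeller HELLS moved from -0.54 to -0.07, also not called.

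In the main fit nucleotide supply was the group with the most rises, 3 of 4, but 0 of 4 rose with total counts as the scaling. In DESeq2 2 of the 4 rose, with RRM2 not called (adjusted p by DESeq2 = 0.0889). Whether the groups of genes differ in this was not tested. RRM2 was at 82.2, 28.1, 37.1 and 31.5 CPM with siNS and 72.5, 76.1, 76.2 and 78.5 with siYES1. The siNS replicate 1 was above all 4 siYES1 libraries and the other 3 siNS libraries far below them, so the log2 fold change was 0.72 ± 0.26 (adjusted p by edgeR = 0.0457) with it and 1.18 ± 0.09 (5.57e-09) without it. RRM1 rose by 0.46 ± 0.11 and TK1 by 0.50 ± 0.16, and by 0.57 and 0.74 without that library. The call of TK1 was lost with 6 of the 8 libraries left out in turn, with adjusted p up to 0.0866. TYMS was at 19.2, 14.7, 10.8 and 9.63 CPM with siNS and 12.3, 10.3, 10.9 and 11.7 with siYES1, and did not pass, at -0.31 ± 0.20 with all libraries and -0.10 without siNS replicate 1. The ratio of RRM2 to RRM1 in reads per kb was 0.462 in siNS replicate 1, 0.214 to 0.255 in the other 3 siNS libraries and 0.352 to 0.406 with siYES1. With all libraries an exact permutation test gave a two-sided p of 0.2 (adjusted 0.25 over 10 ratios). Without siNS replicate 1 it gave 0.0571, the smallest that 3 against 4 libraries allow. In MDA-MB-231 this ratio was 0.448 ± 0.024 with siNS and 0.472 ± 0.0413 with siYES1 (SD, n = 4 each, exact permutation p = 0.371).

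In the fork protection complex of SUM159PT, the calls depended on siNS replicate 1 and on the processing. With all libraries TIMELESS was called higher in the fit of both lines together, at 0.38 (adjusted p by edgeR = 0.0361). It was also called with no filter on low counts, at 0.35 (adjusted p by edgeR = 0.0296), but not in the main fit. TIMELESS was at 47.2, 25.9, 25.5 and 26.0 CPM with siNS and 40.2, 40.0, 42.5 and 39.2 with siYES1, at 0.34 ± 0.18 with all libraries (adjusted p by edgeR = 0.157) and 0.60 ± 0.09 without siNS replicate 1 (3.57e-05). TIPIN was at 11.2, 5.98, 5.28 and 4.76 and 4.50, 2.18, 2.67 and 5.14 CPM, and fell by 0.94 on the log2 scale (adjusted p by edgeR = 0.0414). That call was lost without siNS replicate 1, at -0.60 (0.0954), and with siYES1 replicate 1, 2 or 3 left out, with adjusted p up to 0.116. CHAF1B was at 27.2, 17.6, 15.8 and 11.8 CPM with siNS and 6.98, 9.08, 9.19 and 9.85 with siYES1, groups that did not overlap. It fell by 1.08 (adjusted p by edgeR = 0.00237), and by 0.82 without siNS replicate 1. ASF1B was at 32.7, 17.9, 19.6 and 18.7 and 18.1, 20.6, 21.6 and 20.04 CPM, at -0.19 ± 0.18, and 0.05 without siNS replicate 1, and did not pass. DTL was at 28.3, 18.8, 10.9 and 14.1 CPM with siNS and 34.98, 32.2, 34.4 and 34.7 with siYES1. It rose by 0.88 ± 0.22 (adjusted p by edgeR = 0.00748), and by 1.18 without siNS replicate 1.

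The third comparison tested whether the change differed between the lines. The response was lower in SUM159PT for 31 members and higher for 0, with 15.4% of all 16299 tested genes called higher and 8.85% lower (edgeR, line by siRNA interaction, adjusted p under 0.05). At an unadjusted p under 0.05, 42 members were lower and 0 higher, where 5835 of all 16299 genes passed in either direction. DESeq2 gave 36 lower and 0 higher, beside 1991 and 2313 of all genes, and limma-voom 30 and 0, beside 1411 and 2513. The median difference was -0.83 log2 units for the members and 0.03 for all genes. Without siNS replicate 1 of SUM159PT, 30 members were lower and 0 higher, beside 10.5% and 13.3% of all genes, with a median of -0.63. The split over all genes depends on the scaling, from 2511 higher and 1442 lower with TMM over all libraries to 1840 and 1913 with TMM within each line and 1375 and 2795 with total counts, where the median of all genes was -0.19. Members called lower were 40 and 42 under these 2 scalings, with 0 higher.

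The largest difference was that of MCM10, at -2.04 ± 0.44 (SE, adjusted p by edgeR = 0.00162), and -1.33 ± 0.20 without siNS replicate 1. CCNE2 differed by -1.66 ± 0.36, CHAF1B by -1.63 ± 0.24, MCM3 by -1.60 ± 0.35, GINS2 by -1.59 ± 0.35 and PRIM1 by -1.42 ± 0.30, and without that library by -1.396, -1.43, -1.05, -1.18 and -1.28. All 6 kept their call without it. POLA2 differed by -1.34, TIPIN by -1.28, PCNA by -1.14, ASF1B by -1.104, CDT1 by -0.96, TYMS by -0.95 and GMNN by -0.66. With siNS replicate 1 left out, these 7 were at -1.25, -0.99, -0.74, -0.93, -1.002, -0.80 and -0.63, and were still called. MCM2 differed by -0.84 ± 0.23 (adjusted p by edgeR = 0.0115) and CCNE1 by -0.65 ± 0.20 (0.0218), the latter losing its call without siYES1 replicate 3 or 4 of SUM159PT, with adjusted p up to 0.0548. They were at -0.60 and -0.72 without siNS replicate 1. DTL, which rose in both lines, was at -0.68 ± 0.25 (adjusted p by edgeR = 0.0494), a call that was lost in 14 of the 16 fits with 1 library left out, with adjusted p up to 0.101. The fit that left out siNS replicate 1 of SUM159PT was among them, at -0.44.

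In the main fit 19 members showed no called difference. Some of them had large estimates, such as CDC6 at -0.94 (adjusted p by edgeR = 0.0529) and MCM5 at -0.72 (0.0793). Without siNS replicate 1 these were at -0.42 and -0.30, also not called. CDC6, MCM5, CDC7, GINS1, POLE2, RFC4, LIG1 and SLBP were called lower with total counts and with TMM within each line. The members given next had smaller estimates. DBF4 differed by 0.01 ± 0.17 (adjusted p by edgeR = 0.998), and its sign changed to -0.20 with total counts as the scaling and to -0.13 without siNS replicate 1. ORC6 was at -0.15 ± 0.20, RRM2 at -0.14 ± 0.29, TK1 at -0.26 ± 0.20, RRM1 at -0.32 ± 0.15 and RFC2 at -0.25 ± 0.20. ORC6 without siNS replicate 1 was at -0.02, TK1 at -0.08, RRM1 at -0.27 and RFC2 at -0.12, and the sign of RRM2 turned to 0.26, and RRM1 was called lower with total counts (-0.55, adjusted p = 0.0176) and with TMM within each line (-0.42, 0.0454). Of the 4 genes of nucleotide supply, 1 was called lower (TYMS), and 2 with total counts or TMM within each line. The other groups had 8 of 11 in origin licensing, 8 of 14 among polymerases and clamp and 4 of 5 in fork protection. Chromatin assembly had 4 of 5, helicase activation 3 of 6, the S-phase kinases 2 of 4, and DTL made 1 of 1. Whether the groups of genes differ in this share was not tested. Read side by side, 6 members rose in both lines, 36 rose in MDA-MB-231 and were not called in SUM159PT, and 6 rose in the first and fell in the second (MCM3, MCM4, CCNE2, PCNA, TIPIN and CHAF1B). MCM6 and CCNE1 fell in SUM159PT and were not called in MDA-MB-231. With siNS replicate 1 of SUM159PT left out, 11 rose in both, 33 rose in MDA-MB-231 and were not called in SUM159PT, and 4 rose in the first and fell in the second, with CCNE2 and TIPIN no longer among them. Across the 50 genes the 2 log2 fold changes had a Pearson r of 0.583 and a Spearman rho of 0.492, genes that share their libraries and are not independent. The values without siNS replicate 1 were 0.623 and 0.467.

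The lines already differed in these transcripts with the control siRNA. With siNS, 36 members were lower and 2 were higher in SUM159PT than in MDA-MB-231, where 39.0% of all genes were lower and 38.0% higher (edgeR). The median difference was -0.85 log2 units, beside -0.03 for all genes. Without siNS replicate 1 of SUM159PT, 41 were lower and 2 higher, beside 6612 and 6443 of all 16672 genes. The median was then -1.20. CDT1 and DBF4 were the 2 that were higher, by 0.80 ± 0.09 and 0.48 ± 0.12. MCM3 had the largest difference, at -2.49 ± 0.25, and -3.08 ± 0.08 without siNS replicate 1. Per kb of exon the median member stood at 7.36 ± 0.478 RPKM with siNS and 14.7 ± 0.408 with siYES1 in MDA-MB-231, and at 5.08 ± 1.61 and 5.15 ± 0.277 in SUM159PT (SD over 4 libraries). In siNS replicate 1 of SUM159PT it was at 7.47, within the range of the MDA-MB-231 siNS libraries (6.70 to 7.75), while the other 3 were at 3.96 to 4.48.

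The shares of the MCM2-7 subunits are given next, per kb of exon. Summed per kb, they were at 190.0 to 217.8 RPKM with siNS and 270.6 to 281.0 with siYES1 in MDA-MB-231. In SUM159PT the sum was 122.4 in siNS replicate 1, 54.3 to 55.1 in the other 3 and 49.2 to 52.8 with siYES1. The share of MCM3 was 40.1% to 41.4% with siNS and 34.4% to 35.7% with siYES1 in MDA-MB-231. In SUM159PT it was 24.2% in siNS replicate 1, 16.7% to 18.3% in the other 3 and 10.1% to 11.9% with siYES1. The share of MCM7 went the opposite way, from 22.5% to 26.0% with siNS to 31.6% to 32.1% with siYES1 in MDA-MB-231, and from 21.99% to 26.9% to 37.1% to 38.5% in SUM159PT. None of these groups overlapped, siNS replicate 1 included. Each of these 4 contrasts had an exact two-sided permutation p of 0.0286, the smallest that 4 against 4 libraries allow, and 0.0571 after adjustment over 10 such ratios, so that none passed. The SUM159PT shares without siNS replicate 1 had p = 0.0571 each, the smallest that 3 against 4 libraries allow in an exact permutation test. The ratio of DBF4 to CDC7 per kb was 1.15 ± 0.189 with siNS and 1.44 ± 0.0416 with siYES1 in MDA-MB-231 (SD, n = 4 each; exact permutation p = 0.0571, adjusted 0.0952). In SUM159PT it was 1.44 ± 0.50 and 2.65 ± 0.427 (exact permutation p = 0.0286, adjusted 0.0571), and 1.68 ± 0.174 with siNS without replicate 1 (n = 3; exact p = 0.0571).

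**Figure D4:**
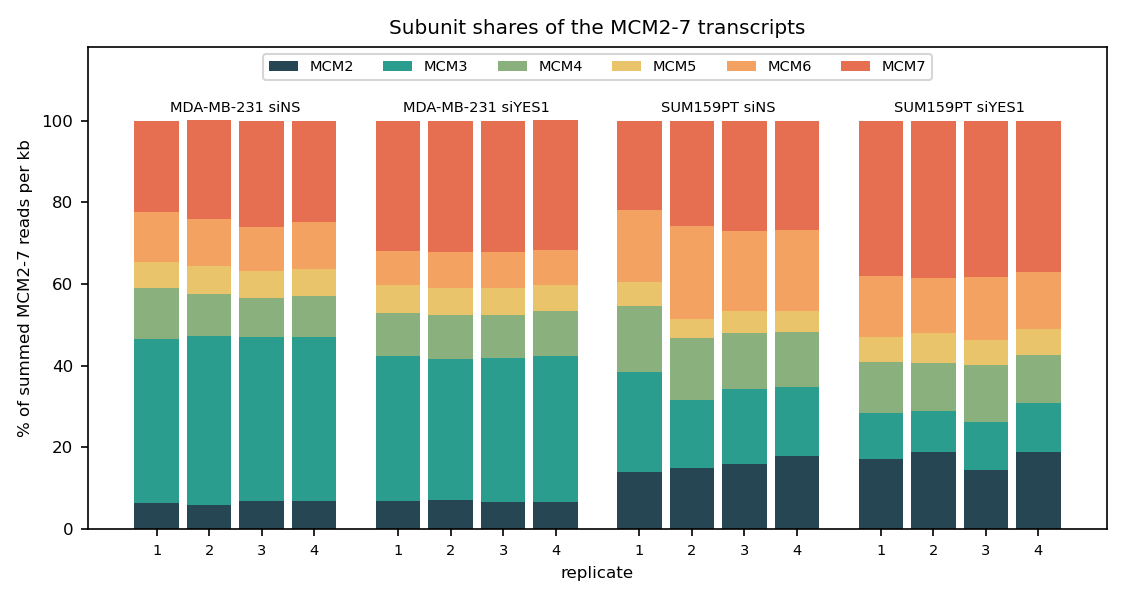
Share of each MCM2-7 subunit in their summed reads per kb, in percent, with 1 bar per library and 4 replicates in each group. MCM3 takes 40.1% to 41.4% with siNS and 34.4% to 35.7% with siYES1 in MDA-MB-231, and MCM7 takes 37.1% to 38.5% with siYES1 in SUM159PT.

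Other genes of replication had a smaller median change in MDA-MB-231. Both lists were chosen with earlier results of these data known, so the choice itself may have set this contrast, which was not tested. Of 49 that are not among the 50, 33 rose and 5 fell in MDA-MB-231, beside 24.9% and 27.5% of all genes. Their median log2 fold change was 0.40. In SUM159PT the median was -0.04, with 7 that rose and 4 that fell, and 13 rose and 4 fell without siNS replicate 1, and 1 rose and 9 fell with total counts as the scaling. The difference between lines was higher in SUM159PT for 4 and lower for 15, beside 15.4% and 8.85% of all genes. Without siNS replicate 1 it was higher for 2 and lower for 15, beside 13.3% and 10.5% of all genes. With total counts it was higher for 1 and lower for 30, beside 1375 and 2795 of all 16299 genes. CDK2, the partner of cyclin E, rose in both lines, by 1.60 ± 0.09 in MDA-MB-231 (from 19.0 to 55.4 CPM in the means) and 1.15 ± 0.11 in SUM159PT (from 18.2 to 41.5), which was 1.15 also without siNS replicate 1. MCM8 and the nuclease DNA2 rose by 1.22 each in MDA-MB-231. UNG, the uracil-DNA glycosylase, rose by 0.92 in MDA-MB-231 and fell by 1.21 on the log2 scale in SUM159PT, a difference of -2.03 ± 0.27 (SE, adjusted p by edgeR = 1.15e-05). It fell by 0.82 in SUM159PT without siNS replicate 1, with a difference of -1.69. CUL4B, a scaffold of CRL4 ligases, fell by 0.45 and 1.13 on the log2 scale, and by 1.21 in SUM159PT without that library.

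The mitotic genes rose in both lines. Of 20 mitotic genes such as PLK1 and CCNB1, all 20 rose in each line, with medians of 1.05 and 0.96. Of all genes, 24.9% rose in MDA-MB-231 and 17.7% in SUM159PT. In the difference between lines 1 mitotic gene was called lower and 0 higher (8.85% and 15.4% of all genes), with a median of 0.06. All 20 rose in SUM159PT without siNS replicate 1, with a median of 0.98, and 1 was called lower and 2 higher in the difference, with a median of 0.11. With total counts as the scaling, 18 of the 20 rose in SUM159PT and the median difference between lines turned to -0.17, with 3 lower. In siNS replicate 1 of SUM159PT the median mitotic gene stood 0.80 log2 units below the siYES1 mean (-0.797), with -1.12 to -0.92 in the other 3 siNS libraries. The median replication gene stood at 0.72 above the siYES1 mean in that library and at -0.16 to -0.09 in the others. The 2 lists thus lay on opposite sides of the siYES1 mean in that 1 library, and no test was made of the difference between them.

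**Figure D5:**
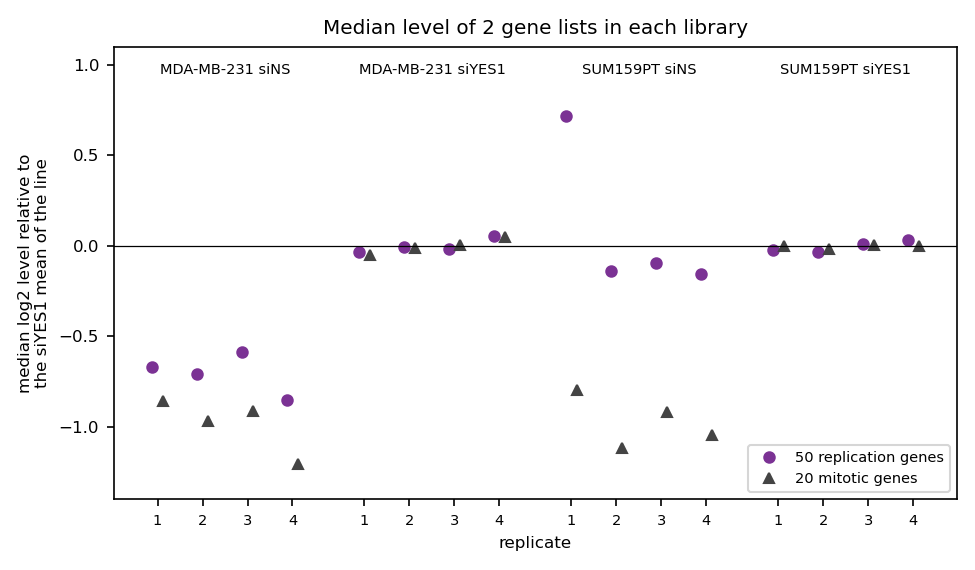
Median log2 level of the 50 replication genes (circles) and 20 mitotic genes (triangles) in each of the 16 libraries, relative to the mean of the siYES1 libraries of the same line. The circle of siNS replicate 1 of SUM159PT is at 0.72 while its triangle is at -0.80, and in MDA-MB-231 both lists lie below 0 in all 4 siNS libraries.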

How the data were processed

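RNA was sequenced from 16 libraries, 4 in each of 4 groups. The values are whole-number read counts per gene, deposited by the authors. HISAT2 2.0.5, featureCounts 1.5.0-p3 and the build hg38 appear in the submitters' processing notes. The strand setting of the counting is not given in the sources used here. All 58735 gene identifiers were found in GENCODE 29, which gave names, positions and exon lengths.

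The members and lists were chosen with earlier results of these data known. edgeR 4.0.16 (R 4.3.3) was run with TMM scaling, its expression filter (minimum count 10, minimum total 15) and the quasi-likelihood test, on the 8 libraries of each line, and on all 16 for the line by siRNA interaction and for siNS between lines. P-values were adjusted by Benjamini-Hochberg over all tested genes, with calls under 0.05. A standard error is the log2 fold change divided by the square root of F. CPM were scaled with TMM factors over 16 libraries, and RPKM are CPM per kb of exon. Alternatives were DESeq2 1.42.0 size factors and test, limma-voom 3.58.1, total-count scaling, no filter, a mean of 1 CPM, a replicate block, a joint fit, TMM within lines, the longest transcript as length, and each library left out. The edgeR procedure was tested on simulated counts. The ratios tested by permutation were chosen after seeing the data.

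Same-numbered siNS and siYES1 libraries did not deviate together (correlations from -0.074 to 0.042), so the numbers were not taken to pair them. Values in every library are given for 10 key members and for the member with the largest absolute log2 fold change in each role, in each line and in the difference between lines. Other replication genes were named where they were among the 3 largest called changes of a line. MCM6 was given in every library after its values were seen.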

Additional observations from a re-analysis of the deposited data

Results flagged for a closer look

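A library far from the other 3 of its group was found in 25 of the 200 sets of 4 CPM values (50 members in 4 groups). For independent sets chance gives about 1 in 20. The members share their libraries, so 1 deviant library can be counted many times. The rate over all genes was not computed. In 19 of the 25 the distant library was siNS replicate 1 of SUM159PT, and in each of them that library was the highest. These members, in CPM in that library, were CDC6 at 38.3, MCM3 at 108, MCM4 at 139, MCM5 at 52.9, MCM6 at 88.0, MCM7 at 118.1, CDC7 at 29.4, MCM10 at 33.6, GINS3 at 9.11 and POLA1 at 22.2. The others were POLD3 at 21.2, POLE2 at 7.32, PCNA at 89.9, FEN1 at 53.0, RRM2 at 82.2, TK1 at 60.9, TIMELESS at 47.2, ASF1B at 32.7 and HELLS at 22.2. The 19 members belong to licensing, kinase, helicase, polymerase, nucleotide, fork and chromatin genes.

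The 6 other distant values lay in 3 groups. CCNE1 was low in siYES1 replicate 3 of MDA-MB-231, at 16.5 CPM against 18.7 to 19.1 in the other 3. In siNS replicate 4 of that line PRIM1 was low, at 3.96 against 5.88 to 6.13, and RRM2 was low, at 60.9 against 72.7 to 74.3. CHAF1B was high in its siNS replicate 3, at 31.6 against 27.2 to 27.9. In SUM159PT, CDC45 was low in siYES1 replicate 2, at 11.7 against 13.3 to 13.5, and DSCC1 was low in siYES1 replicate 1, at 12.4 against 14.5 to 14.9.

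The response to siYES1 differed between the lines for 31 members, by the interaction test in edgeR, and was lower in SUM159PT for each of them. The log2 differences of the first 11, in order of size, were MCM10 at -2.04, CCNE2 at -1.66, CHAF1B at -1.63, MCM3 at -1.60, GINS2 at -1.59, PRIM1 at -1.42, POLA2 at -1.34, TIPIN at -1.28, MCM4 at -1.26, HELLS at -1.21 and CLSPN at -1.19. The next 10 were PCNA at -1.14, ASF1B at -1.10, POLE at -1.10, ORC1 at -1.09, FEN1 at -1.08, CHAF1A at -1.05, CDC45 at -0.98, CDT1 at -0.96, MCM6 at -0.96 and TYMS at -0.95. The last 10 were MCM2 at -0.84, RFC3 at -0.82, DSCC1 at -0.82, RFC5 at -0.80, MCM7 at -0.72, TIMELESS at -0.68, DTL at -0.68, GMNN at -0.66, CCNE1 at -0.65 and POLD1 at -0.60. Without siNS replicate 1 of SUM159PT, 30 of the 31 were still called, DTL being the exception at -0.44, and MCM10 was then at -1.33, MCM4 at -0.84, HELLS at -0.80, CLSPN at -0.80, PCNA at -0.74, FEN1 at -0.59, CHAF1A at -0.70 and CDC45 at -0.64.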

How the results depend on the processing

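In MDA-MB-231, 48 members rose under every alternative except the joint fit of both lines (38), and the median stayed between 0.72 and 0.81 with each library left out. In SUM159PT the values depended on siNS replicate 1 and on the scaling. The members that rose numbered 3 with total-count scaling, 10 with that scaling and without siNS replicate 1 (an alternative chosen after seeing the data), and 4 to 11 with 1 library left out. Those that fell numbered 13 with no filter and 5 to 10 with 1 library left out. The SUM159PT median ran from -0.41 to 0.11 with 1 library left out, and its sign turned only without siNS replicate 1. The median difference between lines was -1.07 with total-count scaling and -0.95 to -0.63 with 1 library left out, and 29 to 37 members were then called lower. With siNS, the median between lines was -1.31 with total-count scaling and without siNS replicate 1, and -1.20 to -0.71 with 1 library left out, with 2 to 4 members higher and 35 to 41 lower. The cause of these shifts was not tested. A fit with the replicate block gave 48 members higher in MDA-MB-231, 7 higher and 7 lower in SUM159PT, 31 lower in the difference (median -0.78) and 36 lower with siNS. Under that replicate block, CCNE2 (edgeR adjusted p = 0.0896) lost and WDHD1 (0.0293) gained a call in SUM159PT, and in the difference DTL lost (0.075) and CDC6 gained (0.0306) one. The median RPKM with the longest transcript as length was 10.0 and 18.7 in MDA-MB-231 and 6.33 and 6.42 in SUM159PT. With 4 libraries a group the exact tests cannot go below 0.0286, and for members of a few CPM counting noise limits the precision.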
